A study of Mus musculus with 12 samples.

Results

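The 32 genes described here make cholesterol, sense it and move it. They were chosen by a list of gene symbols, each of which had to be present in all 12 RNA sequencing libraries of cultured mouse adipocytes, and all 32 were found among 24341 distinct symbols (24888 entries). The list holds 8 enzymes from acetyl-CoA to isoprenoids (Acat2, Hmgcs1, Mvk, Pmvk, Mvd, Idi1, Fdps, Ggps1) and 10 enzymes from squalene to cholesterol (Fdft1, Sqle, Lss, Cyp51, Tm7sf2, Nsdhl, Hsd17b7, Ebp, Sc5d, Dhcr7). It also holds 5 genes of sterol sensing (Srebf1, Srebf2, Scap, Insig1, Insig2), 5 genes of the oxysterol response and efflux (Nr1h2, Nr1h3, Abca1, Abcg1, Mylip) and 4 of sterol transport and storage (Stard4, Npc1, Npc2, Soat1). The list applies no threshold to a measured value, and each gene stood at 1 locus.

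The study measured total RNA of adipocytes differentiated in culture, in 6 groups of 2 libraries. Preadipocytes of inguinal white fat of C57BL/6 mice, WT or ATF7KO, were differentiated with rosiglitazone, an agonist of the adipogenic receptor PPARγ, and called beige, or without it and called white. C3H10T1/2, an established mouse mesenchymal cell line, was differentiated with rosiglitazone as control or with the transcription factor ATF7 overexpressed, and both groups were called beige. The labels do not say whether the libraries of a group come from separate animals or cultures, so the p-values measure only the spread between these libraries, which may be technical. Beige and white cultures of the same genotype differ in rosiglitazone, and the part of the drug and that of the cell state cannot be told apart.

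Cholesterol synthesis starts from acetyl-CoA, passes through mevalonate and farnesyl diphosphate to squalene, and closes the sterol rings before a last series of reductions and desaturations. When sterols in the endoplasmic reticulum are low, SCAP carries the SREBP transcription factors (Srebf1, Srebf2) to the Golgi for activation, and the INSIG proteins hold SCAP back when sterols are plentiful. When oxysterols are high, the LXR receptors (Nr1h2, Nr1h3) turn on the exporters ABCA1 and ABCG1 and the ubiquitin ligase MYLIP. Adipocytes hold a large pool of free cholesterol at the surface of the lipid droplet.

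The promoters of 5 genes are shown, picked because their levels differed between beige and white cultures. Hmgcs1 and Lss were higher in beige, and Srebf2, Tm7sf2 and Idi1 were lower. Each promoter is the 250 bases before the gene start, 5′ to 3′ in the direction of the gene, from RefSeq on GRCm38.p6. Capitals mark TCACNCCA, a pattern of the sterol regulatory elements that SREBPs bind, and CCAAT, the pattern that NF-Y binds beside them, each searched on both strands; on the opposite strand CCAAT reads ATTGG. The marked matches do not overlap each other.
Hmgcs1 (chr13:119690101-119690350, plus strand): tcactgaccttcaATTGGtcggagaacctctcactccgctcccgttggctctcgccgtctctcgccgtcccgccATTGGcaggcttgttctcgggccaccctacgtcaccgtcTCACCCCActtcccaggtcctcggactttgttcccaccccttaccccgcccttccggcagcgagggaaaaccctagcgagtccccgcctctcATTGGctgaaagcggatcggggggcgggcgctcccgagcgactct
Srebf2 (chr15:82147019-82147268, plus strand): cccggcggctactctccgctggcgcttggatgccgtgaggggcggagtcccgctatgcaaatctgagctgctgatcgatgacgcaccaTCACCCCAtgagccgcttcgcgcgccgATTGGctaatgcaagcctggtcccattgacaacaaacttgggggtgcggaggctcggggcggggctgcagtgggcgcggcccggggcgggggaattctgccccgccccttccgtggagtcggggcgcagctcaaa
Lss (chr10:76531355-76531604, plus strand): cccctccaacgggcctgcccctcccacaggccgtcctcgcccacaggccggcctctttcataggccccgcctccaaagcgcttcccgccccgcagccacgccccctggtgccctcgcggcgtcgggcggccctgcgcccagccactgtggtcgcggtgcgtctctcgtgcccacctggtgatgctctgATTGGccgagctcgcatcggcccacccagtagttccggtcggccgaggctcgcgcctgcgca
Tm7sf2 (chr19:6067851-6068100, minus strand): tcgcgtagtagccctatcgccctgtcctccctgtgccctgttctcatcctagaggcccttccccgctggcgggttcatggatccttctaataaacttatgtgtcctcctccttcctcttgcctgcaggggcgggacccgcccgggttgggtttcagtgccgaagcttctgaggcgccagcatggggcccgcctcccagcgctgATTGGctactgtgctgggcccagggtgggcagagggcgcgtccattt
Idi1 (chr13:8885356-8885605, plus strand): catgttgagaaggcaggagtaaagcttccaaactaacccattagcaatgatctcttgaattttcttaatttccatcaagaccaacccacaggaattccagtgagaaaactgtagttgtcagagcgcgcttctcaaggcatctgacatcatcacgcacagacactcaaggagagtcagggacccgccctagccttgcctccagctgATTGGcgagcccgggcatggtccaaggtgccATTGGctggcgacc
Of the 32 genes, 26 had an entry in the promoter table. They have 35 windows, since some genes have several starts. TCACNCCA was present in 2 of the 35, those of Hmgcs1 (137 bases before the start) and Srebf2 (162 bases before it), and in 3.67% of 32851 promoter windows of this length. CCAAT was present in 22 of the 35 windows, belonging to 21 genes, and in 33.9% of all windows. A match describes the letters only.

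Library totals, markers and the targeted gene bear on all comparisons. Summed FPKM (fragments scaled by gene length and library size, the authors' unit) was 225536 to 272371 per library, 9844 to 10877 genes reached 1 FPKM, and small RNA genes held 20.1 to 27.5% of the sum. The 32 genes held 0.358 to 0.493%. The smallest steps between low values gave depths from 0.730 to 1.08 relative to WT beige replicate 1. Atf7 did not pass the test in the libraries labelled KO (log2 differences -0.04 in beige and -0.13 in white, adjusted p = 0.949 and 0.604). It was at 7.26 and 7.94 FPKM against 7.80 and 7.83 in WT beige, and 6.88 and 7.73 against 9.10 and 7.10 in WT white. A gene-level value checks nothing about a deletion of part of the gene, and these groups are called KO-labelled throughout. In C3H10T1/2, Atf7 was at 41.2 and 39.1 FPKM with overexpression and at 8.52 and 9.09 in control. Adipocyte markers were present in every library, with Fabp4 between 1940 and 9779 FPKM. Ucp1, the defining gene of thermogenic fat, was at 17.2 to 51.6 FPKM in inguinal beige cultures and at 0 in all 4 white libraries.

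**Figure D1:**
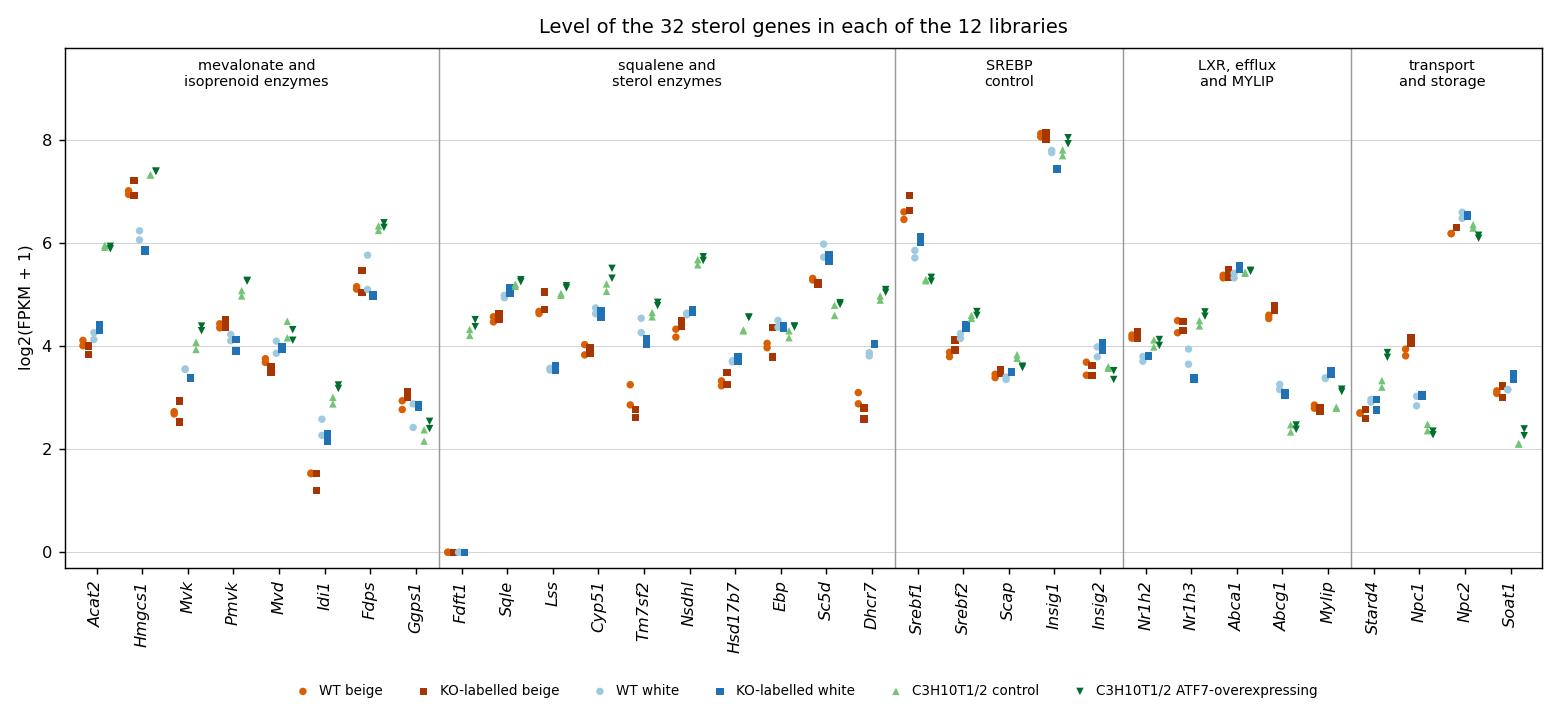
Level of each of the 32 genes as log2(FPKM + 1) on the vertical axis; every point is 1 library and colours and shapes give the 6 groups, with genes ordered by role. Insig1 and Hmgcs1 stand highest, Fdft1 is at 0 in the 8 inguinal libraries, and most enzymes are highest in the C3H10T1/2 libraries.

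Levels per length spanned a wide range. Insig1, which retains SCAP in the endoplasmic reticulum, was the highest member at 172.4 to 282.4 FPKM over the 12 libraries, followed by Hmgcs1, the enzyme that makes HMG-CoA, at 56.6 to 167.9 FPKM. Among members with no library at 0, Idi1, the isomerase that makes dimethylallyl diphosphate, was the lowest at 1.30 to 8.51 FPKM. The steadiest was Abca1, the exporter of cholesterol to lipid-poor apolipoproteins, whose highest library (46.4 FPKM) was 1.19 times its lowest (39.2 FPKM). Dhcr7, the last reductase of the pathway, varied 6.63-fold, Abcg1, the exporter to lipoproteins, 6.61-fold and Idi1 6.53-fold.

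Fdft1 has to be read apart. This gene encodes squalene synthase and was listed at 0 in all 8 inguinal libraries and at 17.5, 19.1, 21.9 and 19.8 FPKM in the C3H10T1/2 libraries. Only 3 genes of the whole series, Abhd1, Fdft1 and Surf1, were at 0 in all 8 inguinal libraries and at 10 FPKM or more in all 4 of C3H10T1/2. All other enzymes of the pathway on the list were above 0 in those 8 libraries, and an exact 0 can be a failed estimate. Fdft1 (14:63145151-63179578, mm10, minus strand) shares 774 exonic bases with Ctsb on the opposite strand, and 30.3% of its 36-base words occur in other genes, mainly Ctsb. Ctsb, a lysosomal protease, was at 139 to 229 FPKM in the 8 inguinal libraries and at 96.3 to 112 FPKM in C3H10T1/2. The libraries were directional, but whether the authors' counting used strand was not given in the labels. Without strand, reads from the shared bases cannot be told apart, while the remaining words of Fdft1 do not occur in other genes. Whether the overlap set the zeros was not tested, and no fold change is given for Fdft1 outside C3H10T1/2.

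Beige against white cultures moved the members in both directions, as they did all genes. In WT, 8 of the 31 members tested rose in beige and 12 fell. The median difference was -0.26 on the log2(FPKM + 1) scale, against -0.10 over all 11294 genes tested. Of all genes, 53.7% were called, 21.6% higher and 32.1% lower, and the members' count is to be read against that background. Calls were 40% higher among members and 40.2% higher among all genes, so the members' split was close to that of all genes. Over the 17 synthesis enzymes tested, 2 rose and 9 fell, with a median of -0.42. Beige and white libraries did not overlap for 9 members that were higher in beige and 18 that were lower, where 31.3% and 46.2% of all genes behaved so. Calls are adjusted p under 0.05 (limma, Benjamini-Hochberg over all genes), and SE denotes the fit's standard error of a log2 difference.

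The size of the split depended on scaling. With small RNA genes left out and the rest rescaled, the all-gene median moved from -0.10 to -0.29 and the members' calls in WT from 8 higher and 12 lower to 7 higher and 17 lower. With quantile normalization the all-gene median was 0.02, and all genes called split 50.9% higher in place of 40.2%, while members split 7 higher and 13 lower. The all-gene share was 51.4% with median centring, 33.4% with equal sums and 27.6% with small RNA genes left out. No called member changed sign under any setting run.

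Markers of other cells moved with beige against white. The 20 macrophage genes, led by Lyz2, C1qb and Mrc1, summed to 38.1 to 39.3 FPKM in WT beige and 575 to 643 in WT white, and 18 of 19 tested were lower in beige. The 12 stromal genes, led by Col1a1, Col3a1 and Dcn, summed to 704 to 728 FPKM against 3488 to 4512, and all 11 tested were lower. Both counts are of calls, and 32.1% of all genes were called lower in WT beige. The 10 adipocyte genes, led by Fabp4, Lpl and Adipoq, summed to 11460 to 12030 FPKM against 4326 to 4925. Of the 10, 7 were called higher, where 21.6% of all genes were. Most of the sum was Fabp4, with means of 8891 FPKM in WT beige and 2776 in WT white. Lpl was not higher in beige, with means of 822.7 FPKM in WT beige and 851.3 in WT white. In KO-labelled cultures the macrophage sum was 40.7 to 50.7 FPKM in beige and 851 to 904 in white libraries. None of the macrophage or stromal genes was at 0 in both libraries of any inguinal group, and Ucp1 was the only thermogenic gene at 0 in all white libraries. In bulk cultures fewer cells of a type and less RNA per cell cannot be told apart, and the part of other cells in the differences of the sterol genes was not tested.

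In the mevalonate part, Hmgcs1 rose while Mvk and Idi1 fell. Hmgcs1 (13:119690351-119708260, mm10, plus strand) stood at 122.6 and 128.8 FPKM in the WT beige libraries and at 65.9 and 74.7 FPKM in the WT white ones. Every beige library stood above every white one, also in the KO-labelled cultures (121.0 and 148.0 against 56.6 and 57.6 FPKM). The log2 difference was 0.83 ± 0.12 (SE; adjusted p = 0.000498) in WT and 1.21 ± 0.12 (adjusted p = 3.78e-05) in KO-labelled cultures. Of the 36-base words of Hmgcs1, 12.7% occur in other genes.

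Mvk, mevalonate kinase (5:114444269-114460590, plus strand), stood at 5.44 and 5.64 FPKM in the WT beige libraries and at 10.7 and 10.8 FPKM in the WT white ones. Among KO-labelled libraries the beige ones stood at 4.78 and 6.66 and the white ones at 9.33 and 9.51 FPKM. All 4 beige libraries were below all 4 white ones, with log2 differences of -0.85 ± 0.13 (adjusted p = 0.000611) and -0.65 ± 0.13 (adjusted p = 0.0023). Idi1 (13:8885606-8892396, plus strand) also fell in WT, from 3.83 and 4.99 FPKM in white to 1.90 and 1.88 in beige. Its log2 difference was -0.90 ± 0.15 (adjusted p = 0.000861) in WT and -0.85 ± 0.15 (adjusted p = 0.000901) in KO-labelled cultures, where beige libraries were at 1.30 and 1.89 and white ones at 3.91 and 3.43 FPKM. Idi1 shares 26.5% of its words with other genes.

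The other 5 isoprenoid enzymes did not pass the test in WT. Pmvk, phosphomevalonate kinase, differed by 0.23 ± 0.11, Mvd, mevalonate diphosphate decarboxylase, by -0.26 ± 0.11, and Acat2, the thiolase at the start of the pathway, by -0.13 ± 0.10. In KO-labelled cultures Pmvk rose by 0.42, and Mvd and Acat2 fell by 0.42 and 0.45. The Pmvk call was lost with small RNA genes left out (0.23, adjusted p = 0.0907) and without KO-labelled white replicate 2 (adjusted p = 0.093). Acat2 shares 42.3% of its words with other genes, among them Acat3. Fdps, farnesyl diphosphate synthase, was at 33.4 and 53.5 FPKM in the WT white libraries, a wider gap than in WT beige (33.5 and 34.7), and the groups overlapped. Ggps1, which makes geranylgeranyl diphosphate, was at 6.68 and 5.83 FPKM in WT beige libraries, and the WT white ones, at 6.37 and 4.37 FPKM, overlapped them. Fdps shares 27.6% and Ggps1 12.8% of their words with other genes.

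**Figure D2:**
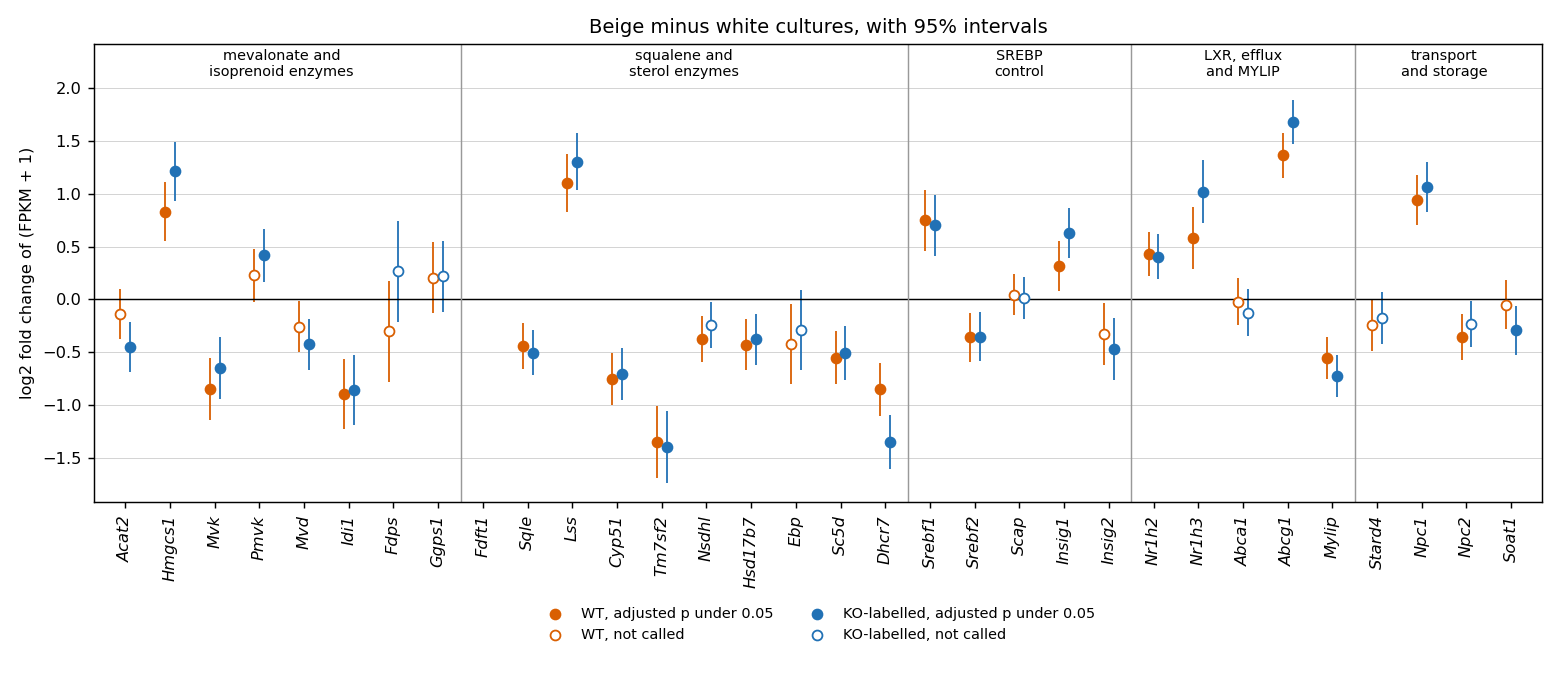
Beige minus white log2 difference of (FPKM + 1) for each gene, with 95% intervals, in WT (orange) and KO-labelled (blue) cultures; filled points passed adjusted p under 0.05. Abcg1, Lss, Hmgcs1 and Npc1 lie far above 0, and Tm7sf2, Dhcr7, Mvk, Idi1 and Cyp51 lie below it in both genotypes; Fdft1 was not tested.

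In the sterol part, 7 of 9 enzymes tested fell in WT beige cultures, 1 rose and Ebp did not pass, where 32.1% of all genes were lower and 21.6% higher. The enzyme that rose was Lss (10:76531605-76557139, plus strand), lanosterol synthase, which closes the sterol rings. Lss stood at 23.9 and 24.6 FPKM in the WT beige libraries and at 10.6 and 10.9 FPKM in the WT white ones, a 2.25-fold ratio of means. KO-labelled libraries gave 25.2 and 32.2 FPKM in beige cultures and 10.6 and 11.3 FPKM without rosiglitazone. Beige and white libraries did not overlap, and the log2 differences were 1.10 ± 0.12 (adjusted p = 8.25e-05) and 1.30 ± 0.12 (adjusted p = 2.13e-05).

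Tm7sf2 (19:6062821-6067850, minus strand), a sterol reductase after lanosterol, fell most among the enzymes. It stood at 8.54 and 6.27 FPKM in the WT beige libraries and at 18.2 and 22.3 FPKM in the WT white ones. The KO-labelled beige libraries were at 5.16 and 5.84 and the KO-labelled white ones at 15.5 and 16.7 FPKM. White means were 2.74 and 2.93 times beige means, and the log2 differences were -1.35 ± 0.15 (adjusted p = 9.18e-05) and -1.40 ± 0.15 (adjusted p = 5.36e-05). Tm7sf2 shares 532 exonic bases with Vps51 on the same strand. Vps51, a subunit of a vesicle tethering complex, stood at 5.62 to 6.26 FPKM in all 8 inguinal libraries.

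Dhcr7 (7:143823167-143848410, plus strand), which makes cholesterol in the last step, stood at 7.58 and 6.38 FPKM in the WT beige libraries and at 13.7 and 13.1 FPKM in the WT white ones. Among KO-labelled libraries the beige ones stood at 5.98 and 5.02 and the white ones at 15.5 and 15.5 FPKM. The groups did not overlap, with log2 differences of -0.85 ± 0.11 (adjusted p = 0.000245) and -1.35 ± 0.11 (adjusted p = 1.18e-05). The difference between these differences had the lowest adjusted p of any member in the test of genotype by culture type, 0.204, and did not pass.

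Cyp51 (5:4080674-4104697, minus strand), the demethylase that acts on lanosterol, stood at 13.2 and 15.4 FPKM in the WT beige libraries and at 23.8 and 25.8 FPKM in the WT white ones. KO-labelled beige libraries, at 13.5 and 14.6, were again below KO-labelled white ones, at 24.8 and 22.5 FPKM. The log2 differences were -0.76 ± 0.11 (adjusted p = 0.000414) and -0.71 ± 0.11 (adjusted p = 0.000467). Sc5d, a sterol desaturase, fell from 62.3 and 52.0 FPKM in WT white to 38.1 and 38.9 in beige, a log2 difference of -0.55. Sqle, squalene epoxidase, fell from 29.8 and 30.8 to 22.8 and 21.2 FPKM, a log2 difference of -0.44. Both also fell in KO-labelled cultures, by 0.51 and 0.50.

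Smaller falls were seen for Hsd17b7 and Nsdhl, which act in a step that removes methyl groups of the ring. Hsd17b7, the ketoreductase of that step, stood at 8.40 and 9.04 FPKM in the WT beige libraries and at 11.97 and 12.2 FPKM in the WT white ones (log2 difference -0.43). Nsdhl, its partner dehydrogenase, was at 17.1 and 19.1 against 23.5 and 24.0 FPKM (log2 difference -0.37). In KO-labelled cultures Hsd17b7 fell by 0.38, and Nsdhl differed by -0.24 (adjusted p = 0.0545). Without WT beige replicate 1 the WT calls of Hsd17b7 and Nsdhl were lost (adjusted p = 0.0654 and 0.0996), and the KO-labelled call of Hsd17b7 was lost without KO-labelled beige replicate 1 (0.0668) or white replicate 2 (0.0905). Ebp, the isomerase between them and the last steps, was lower in WT beige libraries (14.7 and 15.6 FPKM) than in white ones (19.7 and 21.7) without passing the test (adjusted p = 0.06); it passed in 7 of 16 alternatives, among them equal sums, quantile normalization and the replicate block.

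The 8 isoprenoid enzymes summed to 218.6 and 224.5 FPKM in the WT beige libraries and to 166.5 and 200.6 FPKM in the WT white ones, a sum led by Hmgcs1. The 10 sterol enzymes summed to 154.3 and 156.6 FPKM in the WT beige libraries and to 213.5 and 212.7 FPKM in the WT white ones. Beige was the lower group in the sterol sum, to which Fdft1 adds 0, and also in the KO-labelled libraries (149.0 and 169.5 against 209.2 and 206.4 FPKM). The order of the isoprenoid sum rested on Hmgcs1. Without it the other 7 genes summed to 95.94 and 95.7 FPKM in WT beige libraries, below the 100.6 and 125.8 FPKM of the white ones, and the KO-labelled groups overlapped (88.4 and 107.7 against 99.7 and 99.87 FPKM). These sums were not tested.

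Among the sterol sensors, Srebf1 and Insig1 rose in beige cultures and Srebf2 fell. Srebf1 (11:60199089-60220604, minus strand), whose protein drives fatty acid as well as sterol genes, stood at 87.2 and 96.6 FPKM in the WT beige libraries and at 51.6 and 57.1 FPKM in the WT white ones. KO-labelled libraries gave 98.4 and 120.4 FPKM in beige cultures and 64.1 and 69.2 FPKM without rosiglitazone. The groups were apart in both genotypes, with log2 differences of 0.75 ± 0.13 (adjusted p = 0.00106) and 0.70 ± 0.13 (adjusted p = 0.00125).

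Srebf2 (15:82147269-82204960, plus strand), whose protein drives chiefly sterol synthesis, stood at 12.9 and 13.8 FPKM in the WT beige libraries and at 18.0 and 16.8 FPKM in the WT white ones. The KO-labelled beige libraries were at 14.2 and 16.5 and the KO-labelled white ones at 19.5 and 20.3 FPKM. It was the lower group in beige in each genotype, by 0.36 and 0.35 on the log2 scale (adjusted p = 0.0158 and 0.0143). The WT call was lost without WT beige replicate 1 (adjusted p = 0.105) or WT white replicate 1 (0.0696), and the other call without KO-labelled beige replicate 1 (0.0657) or KO-labelled white replicate 1 (0.0508) or 2 (0.0856).

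Insig1 (5:28071412-28078662, plus strand) stood at 279.1 and 267.3 FPKM in the WT beige libraries and at 216.1 and 222.3 FPKM in the WT white ones. Among KO-labelled libraries the beige ones stood at 257.6 and 282.4 and the white ones at 174.8 and 172.4 FPKM. Beige libraries were above white ones throughout, by 0.32 (adjusted p = 0.03) and 0.63 (adjusted p = 0.000721). The WT value fell to 0.04 with quantile normalization (adjusted p = 0.694) and to 0.16 with small RNA genes left out (adjusted p = 0.125), and the WT call was lost without any 1 library of WT beige, WT white or KO-labelled white (adjusted p 0.0502 to 0.171). Insig2, the second retention protein, stood at 11.9 and 9.84 FPKM in the WT beige libraries and at 12.9 and 14.9 FPKM in the WT white ones (log2 difference -0.33, adjusted p = 0.058), and fell by 0.47 in KO-labelled cultures (adjusted p = 0.0113), a call lost without KO-labelled beige replicate 2 (0.0669) or white replicate 2 (0.0821). Scap was at 9.23 to 10.7 FPKM in all 8 inguinal libraries, with differences of 0.05 and 0.02.

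The LXR and efflux genes gave the highest rise of any member. Abcg1 (17:31057694-31117981, plus strand) stood at 22.2 and 23.3 FPKM in the WT beige libraries and at 8.57 and 7.94 FPKM in the WT white ones. KO-labelled libraries gave 24.9 and 26.8 FPKM in beige cultures and 7.26 and 7.53 FPKM without rosiglitazone. Ratios of means were 2.76 and 3.50, and the log2 differences were 1.36 ± 0.09 (adjusted p = 5.99e-06) and 1.68 ± 0.09 (adjusted p = 1.28e-06). Abca1 did not pass the test. It stood at 39.2 and 40.6 FPKM in the WT beige libraries and at 39.2 and 41.8 FPKM in the WT white ones. The 95% interval of its log2 difference in WT ran from -0.24 to 0.20. In KO-labelled cultures Abca1 differed by -0.12 (adjusted p = 0.294). There it was called lower in beige with equal sums, quantile normalization or small RNA genes left out, with differences down to -0.44.

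Both LXR receptors rose. Nr1h3, LXRα, which is enriched in fat and macrophages, stood at 18.2 and 21.6 FPKM in the WT beige libraries and at 11.6 and 14.4 FPKM in the WT white ones, and at 18.8 and 21.3 against 9.43 and 9.31 FPKM in KO-labelled cultures. Its log2 differences were 0.58 ± 0.13 and 1.02 ± 0.13. Nr1h2, LXRβ, was at 16.8 and 17.6 FPKM against 13.0 and 12.1, a difference of 0.43, and rose by 0.41 in KO-labelled cultures. That KO-labelled call was lost with small RNA genes left out (0.22, adjusted p = 0.0704). Mylip, which marks lipoprotein receptors for degradation, went the other way: it fell from 9.36 and 9.47 FPKM in WT white to 6.26 and 5.95 in beige (log2 difference -0.55, adjusted p = 0.000754), and by 0.72 in KO-labelled cultures.

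Of the transport and storage genes, Npc1 rose. This gene encodes the membrane protein that lets cholesterol out of lysosomes, and stood at 14.4 and 13.1 FPKM in the WT beige libraries and at 7.16 and 6.18 FPKM in the WT white ones. KO-labelled beige libraries were at 15.7 and 17.05 against 7.38 and 7.18 FPKM in white ones. The groups did not overlap, with log2 differences of 0.94 ± 0.10 (adjusted p = 8.7e-05) and 1.07 ± 0.10 (adjusted p = 3e-05).

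Npc2, the soluble lysosomal protein that hands cholesterol to NPC1, stood at 71.8 and 72.1 FPKM in the WT beige libraries and at 88.5 and 96.2 FPKM in the WT white ones. It fell by 0.36 in WT (adjusted p = 0.0114), a call lost without either WT beige library (adjusted p = 0.0759 and 0.0715), and differed by -0.23 in KO-labelled cultures (adjusted p = 0.0578). Soat1, which esterifies cholesterol for storage, was at 7.48 and 7.78 FPKM in WT beige libraries, just below the 7.96 and 7.91 FPKM of the white ones, and did not pass (log2 difference -0.05). In KO-labelled cultures Soat1 fell by 0.29 (adjusted p = 0.0347), a call lost with median centring (adjusted p = 0.177), without either WT beige library (0.0567 and 0.0565), without KO-labelled beige replicate 2 (0.163) and without either KO-labelled white library (0.0691 and 0.181). Stard4, a soluble carrier of sterols, stood at 5.50 and 5.53 FPKM in the WT beige libraries and at 6.55 and 6.83 FPKM in the WT white ones, with an adjusted p of 0.0908.

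In KO-labelled cultures as a whole, 9 of 31 members rose in beige and 14 fell, where 61.0% of all genes were called (26.6% higher and 34.3% lower). Libraries did not overlap for 11 members higher and 17 lower, where 36.2% and 44.7% of all genes did not. With small RNA genes left out the split was 7 higher and 19 lower, and the share of higher among all genes called went from 43.7% to 28.4%; with quantile normalization it was 52.8%. The sign was that of WT for 30 of 31 members, the exception being Fdps (-0.30 and 0.27). Of the members, 8 were called higher and 10 lower in both genotypes, 2 in WT only, 5 in KO-labelled cultures only and 0 in opposite directions. In the test of the difference between genotypes (limma), 3 of 31 members and 1900 of 11294 genes had an unadjusted p under 0.05. After adjustment it called 0 of 31 members, against 0.292% of all genes (0.106% higher and 0.186% lower). Thus none of the 7 calls made in 1 genotype is shown to differ between genotypes.

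Other sterol genes, from lists outside the 32, moved in both directions. Of 53 tested in WT, 22 rose in beige and 17 fell, where 21.6% and 32.1% of all genes did. Of further synthesis genes 3 of 12 tested rose and 5 fell. Msmo1, the sterol methyl oxidase, fell by 0.87, and Acly, which supplies cytosolic acetyl-CoA, by 0.70. Of genes of uptake and trafficking 10 of 17 rose and 2 fell, against the same all-gene shares, with Vldlr, a lipoprotein receptor, at 1.95, Gramd1b, a sterol transfer protein, at 1.16 and Scarb1, the HDL receptor, at 1.05, while Nceh1, a cholesterol ester hydrolase, fell by 1.11. Of LXR target and oxysterol genes 5 of 13 rose and 6 fell. Pltp, the phospholipid transfer protein, rose by 2.15 and Ch25h, cholesterol hydroxylase, by 2.20, while Apoe, an apolipoprotein that macrophages also make, fell by 2.12. Of SREBP machinery 4 of 11 rose and 4 fell, among them Syvn1, a ubiquitin ligase, at 0.66 and Fbxw7, which marks nuclear SREBPs for degradation, at -0.71.

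**Figure D3:**
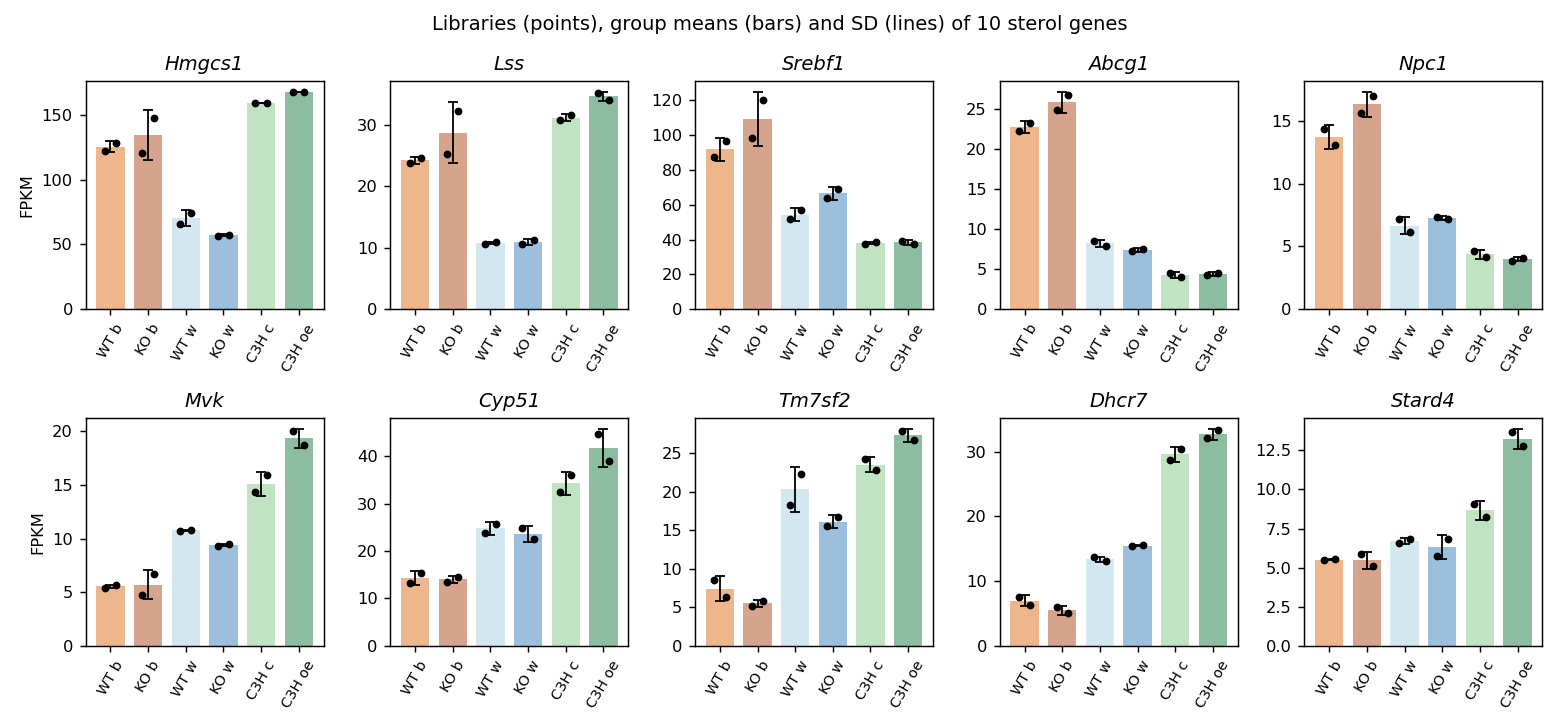
FPKM of 10 genes in the 6 groups: points are libraries, bars are means and lines are SD (n = 2 libraries; b, beige; w, white; c, control; oe, ATF7 overexpressed). Hmgcs1, Lss, Srebf1, Abcg1 and Npc1 are higher in beige than in white libraries, Mvk, Cyp51, Tm7sf2 and Dhcr7 are lower, and Stard4 is highest with ATF7 overexpressed.

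KO-labelled against WT cultures gave no called member. In beige cultures 3 of 31 members and 1160 of 11294 genes had an unadjusted p under 0.05 (limma). After adjustment 0 of 31 members passed, against 0.151% of all genes (0.0531% higher and 0.0974% lower). Differences ran from -0.36 for Tm7sf2 to 0.24 for Srebf1, with a median of 0.04 and the same median, 0.04, over all genes. The 95% intervals of the 31 members lay between -0.70 and 0.60. Dhcr7 had the lowest adjusted p, 0.424, at 5.98 and 5.02 FPKM against 7.58 and 6.38 in WT. Tm7sf2 was at 5.16 and 5.84 FPKM against 8.54 and 6.27. Neither gene's groups overlapped, and 9 members were higher and 5 lower without overlap, where 27.1% and 14.1% of all genes were.

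In white cultures 5 of 31 members and 2246 of 11294 genes had an unadjusted p under 0.05 (limma). After adjustment 0 of 31 members passed, against 1.89% of all genes (1.27% higher and 0.620% lower). The share of higher among those calls was 67.1%, and 47.2 to 52.8% under the other scalings. Nr1h3 had the lowest adjusted p, 0.128, at 9.43 and 9.31 FPKM in KO-labelled and 11.6 and 14.4 in WT libraries. Insig1 was at 174.8 and 172.4 against 216.1 and 222.3 FPKM (log2 difference -0.33, adjusted p = 0.133), and Hmgcs1 at 56.6 and 57.6 against 65.9 and 74.7 (-0.29, adjusted p = 0.231). Srebf1 was at 64.1 and 69.2 against 51.6 and 57.1 FPKM (0.29, adjusted p = 0.246). Soat1 was at 9.24 and 9.997 against 7.96 and 7.91 (0.25, adjusted p = 0.225). Together the 95% intervals of the 31 members spanned -0.93 to 0.58, and a member not called is not shown to be unchanged. The macrophage sum was 851 to 904 FPKM in KO-labelled white libraries against 575 to 643 in WT, with 7 of 19 genes higher, and its part in these values was not tested.

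Outside the 32 genes, 2 of 53 sterol genes rose in KO-labelled white cultures and 0 fell, where 1.27% and 0.620% of all genes did. Acly was at 170.9 and 214.3 FPKM against 95.4 and 93.5 (log2 difference 1.01, adjusted p = 0.0104). Ch25h was at 5.37 and 6.04 against 2.07 and 1.21 FPKM (1.36, adjusted p = 0.0119). In each the KO-labelled libraries were above the WT ones. In beige cultures 0 of 53 passed (limma), against 0.151% of all genes. An unadjusted p under 0.05 was reached by 8 of the 53 and by 1160 of 11294 genes.

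**Figure D4:**
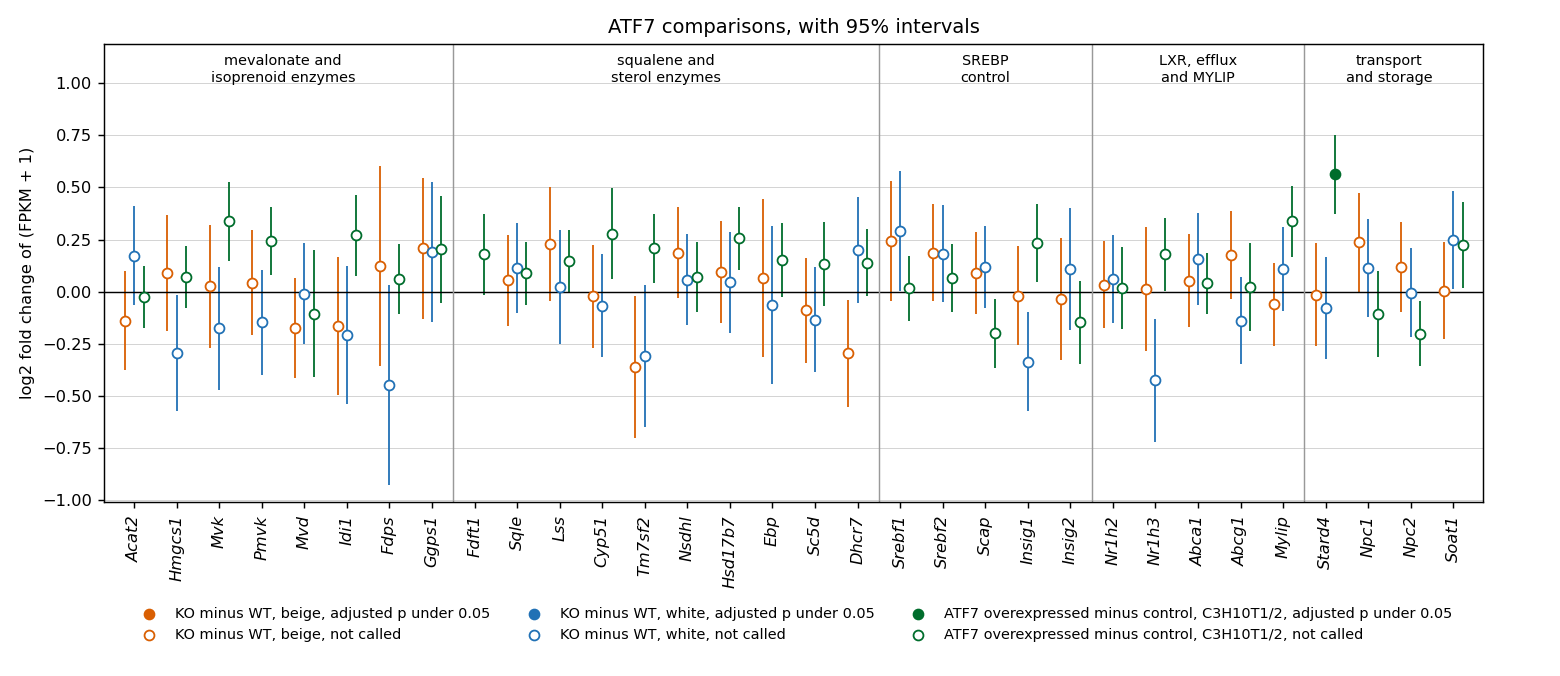
Log2 difference of (FPKM + 1) with 95% intervals for KO-labelled minus WT in beige (orange) and white (blue) cultures and for ATF7 overexpressed minus control in C3H10T1/2 (green); the filled point passed adjusted p under 0.05. Stard4 in C3H10T1/2 is the only filled point, and most green points lie above 0.

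In C3H10T1/2 with ATF7 overexpressed, 1 of 32 members passed the test, where 1.49% of 9981 genes did (0.431% higher and 1.06% lower; 28.9% of calls higher, and 39.9% with small RNA genes left out). It was Stard4 (18:33201421-33213816, minus strand), at 13.7 and 12.8 FPKM against 9.07 and 8.24 in control, a 1.53-fold ratio of means. The log2 difference was 0.56 ± 0.08 (adjusted p = 0.0314). The call was lost with no filter on low values (adjusted p = 0.117) and without control replicate 2 (0.0706), overexpressing replicate 1 (0.175) or overexpressing replicate 2 (0.108), while the difference stayed between 0.50 and 0.61.

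The remaining members leaned upward without passing. Of 32 members 26 differed by more than 0, against 44.3% of all genes, and the median was 0.14 against -0.02. Under the scalings tried the count was 24 to 27. All 10 sterol enzymes and 6 of 8 isoprenoid enzymes were above 0. An unadjusted p under 0.05 (limma) was reached by 13 of 32 members and by 1715 of 9981 genes. The members' count was 9 with the replicate number as a block and 17 with small RNA genes left out. Libraries did not overlap for 20 members that were higher and 4 that were lower, where 20.3% and 28.8% of all genes behaved so. The 10 sterol enzymes summed to 321.9 and 310.3 FPKM against 274.5 and 290.5 in control, and the 8 isoprenoid enzymes to 398.4 and 392.7 against 367.7 and 380.7.

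Mvk was at 20.0 and 18.7 FPKM against 14.3 and 15.9 (log2 difference 0.34, adjusted p = 0.106), and Hsd17b7 at 22.7 and 22.6 against 18.7 and 18.9 (0.26, adjusted p = 0.117). Mylip was at 7.71 and 7.98 against 6.05 and 5.95 FPKM (0.34, adjusted p = 0.0857). In all of these the overexpressing libraries were above the control ones. Fdft1, which could be tested here, was at 21.9 and 19.8 against 17.5 and 19.1 FPKM (0.18, adjusted p = 0.323). On the lower side Npc2 was at 67.5 and 70.3 against 77.6 and 81.2 FPKM (-0.20, adjusted p = 0.195). Scap was at 11.3 and 11.02 against 12.6 and 13.3 (-0.20, adjusted p = 0.212). Acat2, Srebf1, Nr1h2 and Abcg1 differed by less than 0.05 in size, and their libraries overlapped between the groups.

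Outside the list, 2 of 49 sterol genes fell with ATF7 overexpressed and 0 rose, where 1.06% and 0.431% of all genes did. Vldlr was at 4.82 and 4.63 FPKM against 10.1 and 10.7 (log2 difference -0.997, adjusted p = 0.00451), and Lipa, the lysosomal lipase that frees cholesterol from its esters, at 43.6 and 41.5 against 67.4 and 58.7 (-0.55, adjusted p = 0.0393). Of 5 thermogenic genes tested 3 were called lower, where 1.06% of all genes were. Of 10 adipocyte genes 0 were called in either direction, against 1.49% of all genes. Of 9 stromal genes tested 7 were below 0 (median -0.17) and 0 were called, against the same 1.49%. An unadjusted p under 0.05 (limma) was reached by 6 of them, and by 1715 of 9981 genes. The part of stromal genes in the values of the sterol genes was not tested. The macrophage sum was 1.87 to 2.65 FPKM over the 4 libraries, with 19 of 20 genes under 1 FPKM in every library of each group.

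C3H10T1/2 control cultures differ from WT inguinal beige cultures in cell source and genetic background, which cannot be told apart, and their levels are set side by side with no test. Of the 32 genes 21 were higher in C3H10T1/2 control without overlap and 8 lower, where 47.6% and 35.2% of all genes were. The 18 synthesis enzymes divided into 16 higher and 2 lower (Ggps1 and Sc5d), and Fdft1 among the 16 rests on zeros. The largest ratios of means were Dhcr7 at 4.25, Acat2 at 3.85 and Idi1 at 3.55. WT beige was higher for Abcg1 (22.8 against 4.31 FPKM, 5.29-fold), Npc1 (13.7 against 4.37, 3.14-fold), Srebf1 (91.9 against 38.0, 2.42-fold) and Soat1 (7.63 against 3.31, 2.31-fold). Insig2, Nr1h3 and Mylip overlapped between these groups.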

How the data were processed

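RNA of 12 libraries was read as pairs of 36 bases after ribosomal RNA depletion, from directional libraries, per the labels' protocols. The deposited values are FPKM, 1 value per gene entry, made by the authors before deposit, per the file headers. The build was mm10 (GRCm38), per the submitters' processing notes. Not given in the sources used here: aligner, quantifier, annotation and filters. Counts were not analysed here, so depth is known only as a ratio from the steps between low values, and no counting interval is given. Starts were counted from 0, since the RefSeq start was greater by 1 for 62.0% of 22813 genes, so 1 was added.

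Groups came from the sample labels. Tests used limma 3.58.1 (eBayes with trend, R 4.3.3) on log2(FPKM + 1), two-sided, for entries that reached 1 FPKM in 2 or more fitted libraries, with adjustment over all of them (Benjamini-Hochberg). Fold changes on this scale understate the change of low genes. The 8 inguinal libraries were fitted together (11294 genes, 4 residual degrees of freedom) and the 4 of C3H10T1/2 apart (9981 genes, 2 residual degrees of freedom). On simulated data for beige against white in WT (11294 genes, 50 changed per size), the test recovered 44% of log2 changes of 0.5, 88% of 1, 100% of 2 and 92% of -1, with 6 false calls. Far fewer genes changed in the simulation than the 53.7% called in the data, which makes its adjustment stricter. The C3H10T1/2 fit was not simulated.

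All 32 members were named. From each other sterol list up to 4 genes with the lowest p were named per comparison, and from each marker list up to 3 genes with the highest mean; Ucp1, Ctsb, Vps51, Abhd1, Surf1 and Lipa were named for a specific point after their values were seen. A few genes picked this way are not reported here. The members and lists were chosen with earlier results of these data known. Alternatives were a pseudocount of 0.1, no filter, equal sums, quantile normalization, median centring, all 12 libraries in 1 fit, the replicate number as a block and each library left out. Leaving out small RNA genes was added after seeing the data. Shared 36-base words and overlaps were taken from GENCODE M21, and promoters from RefSeq (GRCm38.p6). Python 3.11.15 with pandas 2.3.3 was used for the summaries.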

Additional observations from a re-analysis of the deposited data

Results flagged for a closer look

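Among 85 marker and other genes outside the 32, the genotype difference changed between beige and white cultures for Acly and Cox8b by the test of that change (limma, adjusted p = 0.0333 and 0.0416). Of all genes 0.292% passed it. The other sterol genes among the 85 were picked by low p, also in this test, so 85 is not an unselected total. For Acly the KO-labelled minus WT difference was -0.27 in beige and 1.01 in white, a change of -1.28, with beige KO-labelled libraries at 49.1 and 46.8 FPKM against 61.9 and 54.2 in WT. For Cox8b, a respiratory chain subunit of thermogenic fat, it was 0.73 in beige and -0.32 in white, a change of 1.05, with beige libraries at 269.9 and 294.0 FPKM against 156.3 and 182.6. Groups of 2 libraries were too small for a search for outlying libraries.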

How the results depend on the processing

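The members called in beige against white were 7 to 9 higher and 9 to 17 lower in WT over 16 alternatives, and 7 to 9 higher and 10 to 19 lower in KO-labelled cultures. KO-labelled against WT and the interaction called 0 members in every alternative run. With ATF7 overexpressed, the count of members higher was 1, fell to 0 with no filter on low values, and ranged from 0 to 1 when 1 library was left out. For the 44 single-gene calls, leaving out 1 library at a time kept the call in 320 cases and lost it in 28; with a group left at 1 library, that library is assumed to vary like the others. None turned its direction. Members not called that passed in 4 or more of the 16 alternatives were Ebp (7) and Insig2 (4) in WT and Npc2 (7), Nsdhl (6) and Ebp (4) in KO-labelled cultures.

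With the replicate number as a block, 8 members were called higher and 13 lower in WT beige against white, 9 and 14 in KO-labelled cultures, 0 in KO-labelled against WT, and 1 with ATF7 overexpressed; no call of a named member was lost, and Ebp was gained in WT. The numbers pair no libraries by the labels: deviations of same-numbered libraries correlated between -0.087 and 0.124 across genes in inguinal cultures and at 0.055 in C3H10T1/2.

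With 2 libraries per group and unknown depth, small differences can be missed. The simulated share, 44% of log2 changes of 0.5, cannot be carried over to beige against white in the data. Far fewer genes changed in the simulation. No such share is known for C3H10T1/2. The causes of lost calls were not tested.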
